A study of Mus musculus with 17 samples.

Results

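The genes Ttn, Pclo, Akap9, Csmd1 and Muc4, which encode very long proteins, were followed through the exomes of mouse pancreatic tumours. They were taken by name, as every call whose gene is 1 of these 5. They are 5 of the 209 genes with a call in the series, and they hold 6 of its 258 sites and 8 of its 390 calls. A call is 1 line of the deposited table, in which a base of a tumour was set against the control from the same animal. A site is a position with its alternate base, so a site called in both tumours of a mouse gives 2 calls.

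The 17 samples were 11 pancreatic tumours and 6 pancreatic tissue controls from 6 mice, with 1 control per mouse. There were 3 tumours from mouse 3, 2 from each of mice 1, 2 and 6, and 1 from mice 4 and 5. The study is about neuroendocrine tumours that arise from alpha cells of the pancreatic islet when the glucagon receptor, GCGR, loses its function. Neither the genotype of each animal nor its strain, age or sex is given in the sources used here, and all samples are labelled as untreated. The tissue cannot be checked against marker genes, since DNA was sequenced. Allele fraction is the share of reads at a site that carry the alternate base. Read depth is unknown, so no fraction has an interval.

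A small class of structural, scaffold and membrane proteins is many times longer than most other proteins. A longer coding sequence offers more bases at which a mutation can fall. Genes of this class, Ttn and the mucin genes above all, are therefore often called in tumour exomes whether or not they bear on tumour growth. Titin runs from the Z-disc to the M-line of the muscle sarcomere as a molecular spring. Piccolo, from Pclo, is a scaffold of the presynaptic active zone and also occurs in insulin-secreting cells. Akap9 encodes a scaffold of the Golgi and the centrosome that anchors protein kinase A. Csmd1 encodes a membrane protein with CUB and Sushi domains that inhibits complement. Muc4 encodes a membrane-bound mucin of epithelia whose extracellular part holds tandem repeats.

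The members were chosen for being called and for being long, so their length and their presence in the table are a description and carry no test. Titin, with 35213 residues in the annotated transcript, was 6.95 times as long as the next, piccolo, with 5068. The Akap9 protein had 3779 residues, the Csmd1 protein 3564 and the Muc4 protein 3470. The 5 genes were the 5 longest of the 192 called genes for which the table gives a protein length. Their median was 3779 residues, against a median of 494 in the other 187 (quartiles 309 and 894), a ratio of 7.65. Cdh23, which encodes a cadherin of the inner ear hair cell, stood just outside with 3354 residues, and Muc4 with 3470 just inside. The splice and intron calls of a further 17 genes carry no protein length.

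**Figure D1:**
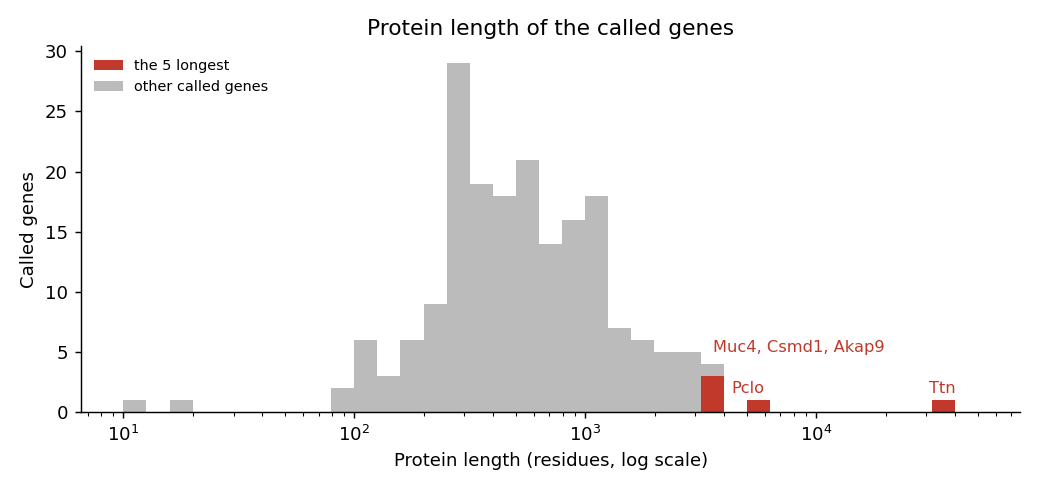
Protein length in residues on a log axis (x) against the number of called genes per bin (y), for the 192 called genes with a length. The 5 longest, in red, run from 3470 to 35213 residues, and the grey bars of the other 187 genes end at 3354.

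Every one of the 6 sites was a missense change, and 0 truncated the protein. Among the other called genes 204 of 252 sites (81.0%) were plain missense changes and 17 truncated the protein or hit a splice donor or acceptor. These 252 include the splice and intron sites of the genes without a protein length. In the 9 next longest called genes with a length, all 12 sites were missense as well, so this is not particular to the members. The sites of Ttn, Akap9 and Pclo lay towards the end of the protein and those of Csmd1 and Muc4 towards its start, as the plot of sites along the proteins shows. Read on the pyrimidine strand, the 6 sites comprised 2 C-to-G, 2 T-to-C, 1 C-to-T and 1 C-to-A change. C-to-G made up 20 of the 252 other sites (7.94%) and T-to-C 59 (23.4%). Positions below are those of the file, read as GRCm38, and each of the 5 genes had its sites inside its own span in the GRCm38 RefSeq table.

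**Figure D2:**
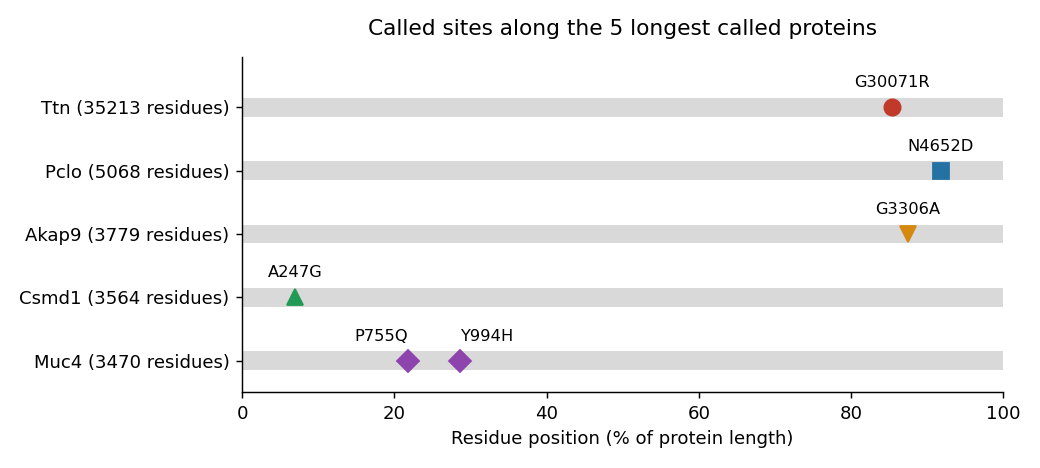
Position of each called site as a percentage of the protein length (x) in the 5 proteins (rows, longest at the top), labelled with the amino acid change. The sites of Ttn, Pclo and Akap9 lie between 85.4 and 91.8%, and those of Csmd1 and Muc4 between 6.93 and 28.6%.

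Ttn (ENSMUSG00000051747) was called in both tumours of mouse 1 and in no other animal. The site lies on chromosome 2 at 76726449, in exon 322 of 347, where c.90211G>A gives G30071R, a glycine replaced by a positively charged arginine at 85.4% of the protein. The fraction was 4.00% in tumour 1 and 11.6% in tumour 2, against 0.357% in the control of the mouse. The fractions were 11.2 and 32.4 times that of the same control, which was not at 0. A call is made on that comparison, so a fraction above the control is no separate observation. Tumour 2 over tumour 1 was 2.89, whereas the median of this ratio over the 90 other sites common to both tumours was 1.31 (quartiles 1.09 and 1.70). In 6 of these 90 the ratio was higher than in Ttn. The 2 tumours come from the same animal and carried 91 sites in common, so they are not independent observations of the Ttn change.

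Of the 2 scaffold genes, Akap9 (ENSMUSG00000040407) had the highest fractions of the 5 genes. It was called in both tumours of mouse 2, at 4064639 on chromosome 5 in exon 39 of 48, where c.9917G>C gives G3306A at 87.5% of the protein. The fraction was 60.9% in tumour 1 and 43.6% in tumour 2, against 0 in the control. Fractions near this level were usual in mouse 2, where the medians of all calls were 45.5 and 43.8%. Tumour 2 over tumour 1 was 0.716, against a median of 1 over the 33 other sites common to both tumours (quartiles 0.893 and 1.06), and 31 of the 33 had a higher ratio. Of the 34 common sites of mouse 2, 29 had an identifier of a variant database, and Akap9 was among the 5 without one. It was the sole call on chromosome 5 in that mouse.

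Pclo (ENSMUSG00000061601) was called in tumour 1 of mouse 1 alone. The site lies on chromosome 5 at 14775392, in exon 15 of 25, where c.13954A>G gives N4652D, an asparagine replaced by a negatively charged aspartate at 91.8% of the protein. The fraction was 6.02% in tumour 1, against 0 in the control. A site missing from the calls of tumour 2 is not shown to be absent there, since depth is unknown.

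Csmd1 (ENSMUSG00000060924), the membrane inhibitor of complement, was called in the same tumour. The site lies on chromosome 8 at 16697994, where c.740C>G gives A247G, an exchange between 2 small residues at 6.93% of the protein. The exon, read back from a cell that the sheet had turned into a date, was 5 of 70. The fraction was 9.30% in tumour 1, against 0 in the control. Pclo and Csmd1 were 2 of the 17 sites that tumour 1 did not have in common with tumour 2. Those 17 had a median fraction of 6.60% and ran from 3.86 to 20%, against a median of 12.5% for the common sites in the same tumour, so Pclo lay below and Csmd1 above the median of its class.

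Muc4 (ENSMUSG00000079620) was the single member with 2 sites and with calls in 2 mice, and it had the lowest fractions. Both sites lay in exon 2 of 27, again read back from a date, and were 716 bases apart on chromosome 16. In tumour 1 of mouse 2, c.2264C>A at 32752387 gave P755Q, at 21.8% of the protein. The fraction was 2.73% in the tumour, against 1.18% in the control, a ratio of 2.32. In tumour 3 of mouse 3, c.2980T>C at 32753103 gave Y994H, at 28.6% of the protein. The fraction was 2.38% in the tumour, against 0 in the control, and this is the sole member site with a database identifier (rs579670609).

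The deposited quality fields set the 2 Muc4 calls apart from the other 6. Neither had a quality score, whereas the 6 calls of Ttn, Akap9, Pclo and Csmd1 had one, of 397, 458, 83 and 85. Over the other called genes 212 of 382 calls (55.5%) had a score. The Y994H call was of tier 2, and the other 7 member calls were of tier 1, as were 330 of the 382 calls of other genes (86.4%). The meaning of the score and the tier is not given in the sources used here. In tumour 1 of mouse 2, P755Q was 1 of 9 sites not called in tumour 2. These 9 had a median fraction of 2.73%, 6 of them had alternate reads in the control, and 1 had a quality score. Whether reads were placed at the right copy among the tandem repeats of Muc4 was not tested, and both of its sites are uncertain for that reason.

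**Figure D3:**
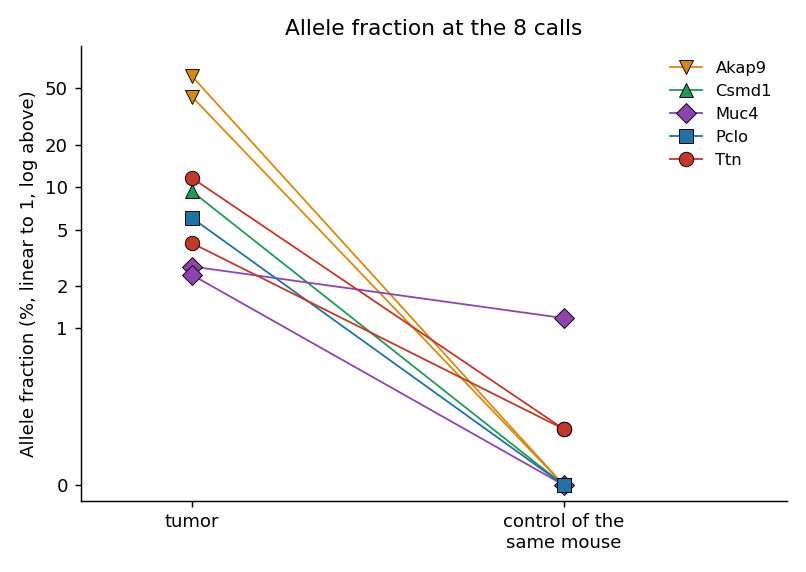
Allele fraction in percent (y, linear up to 1 and log above) at the 8 member calls in the tumour (left) and in the control of the same mouse (right), each line 1 call. The control is at 0 for 5 calls, at 0.357% for both Ttn calls and at 1.18% for the Muc4 call of mouse 2, whose line is the flattest.

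Set against the calls of the same tumour, 4 of the 8 member calls lay under the lower quartile of their tumour: Ttn and Pclo in tumour 1 of mouse 1, and both Muc4 calls. In tumour 1 of mouse 1 the median of all 108 calls was 11.8%. Ttn stood at 0.340 of it, Pclo at 0.512 and Csmd1 at 0.790, so that 8, 18 and 40 of the 108 calls had a lower fraction. In tumour 2 of that mouse Ttn stood at 0.787 of the median of 14.7%. In mouse 2, Akap9 stood at 1.34 and 0.995 of the medians of its 2 tumours, and Muc4 at 0.0601. In tumour 3 of mouse 3, Muc4 stood at 0.327 of the median of 7.29%, with 2 of 17 calls lower.

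In all, 7 of the 8 member calls (87.5%) lay below the median of their tumour, against 184 of 382 calls of the other genes (48.2%). The median ratio over the 8 calls was 0.650 (0.789 without Muc4). By mouse it was 0.650 in mouse 1 (4 calls), 0.995 in mouse 2 (3 calls) and 0.327 in mouse 3 (1 call, in Muc4). The mean of these was 0.657 ± 0.334 (SD, n = 3 mice), which gives mice with unequal numbers of calls the same weight. The median of the other genes was 1, and the spread between mice 2 and 3 reached from near that value to well under it. No test was made, since fractions come from the same calls that chose the genes and since 2 sites enter in 2 tumours each. The 9 next longest of the called genes with a protein length, from Cdh23 with 3354 residues to Acan with 2132, stood higher in their tumours. Of their 17 calls 4 (23.5%) lay below the tumour median, and their median ratio was 1.20. The control was at 0 in 5 of 8 member calls (62.5%, exact 95% interval 24.5 to 91.5), in 17 of these 17 (lower bound 80.5%) and in 307 of 382 calls of all other genes (80.4%). These intervals cover counting error only, and calls at 1 site share their source. The 17 called genes without a protein length could not be ranked, so the values of the 9 genes hold for ranked genes only. Most calls of Itpr1, an unranked gene of mouse 2, lay below the median of their tumour. Some of them were not at 0 in the control. Whether the Itpr1 protein is long enough to stand among the 9 cannot be told from the deposited lengths. Counted with the 9 genes, its calls would bring both of their shares nearer to those of the members.

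**Figure D4:**
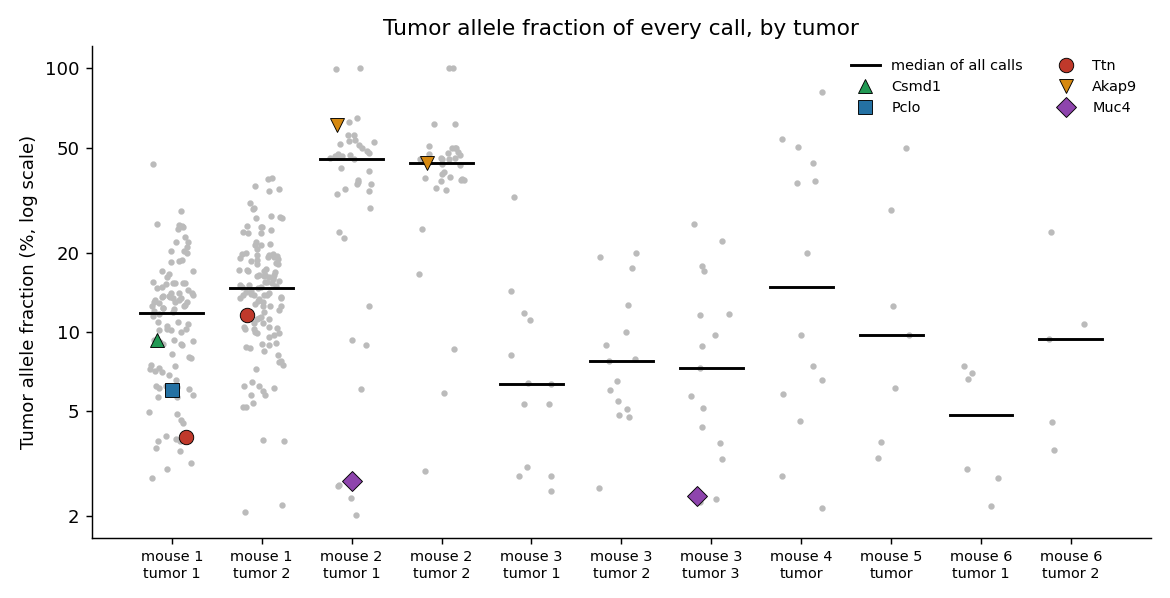
Tumour allele fraction in percent on a log axis (y) of all 390 calls, by tumour (x). Coloured symbols are the member genes, grey points the calls of other genes, and black bars the median of all calls of a tumour. Of the 8 coloured symbols only that of Akap9 in tumour 1 of mouse 2 lies above its bar.

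The member sites were found in 3 of 6 mice and in 5 of 11 tumours. Mouse 1 had 3 of its 142 sites in these genes (2.11%, exact 95% interval 0.438 to 6.05), mouse 2 had 2 of 46 (4.35%, 0.531 to 14.8) and mouse 3 had 1 of 44 (2.27%, 0.0575 to 12.0). The 3 intervals overlap widely. Mice 4, 5 and 6 had 0 of 32 sites. An approximate upper limit, 3 divided by the 32 sites, is a share of 9.38%, above the share in each of the other mice. The difference in number of member sites between mice was thus not detectable as a difference in share. The longest called protein was titin in mouse 1, the Akap9 protein in mouse 2 and the Muc4 protein in mouse 3. It was the cartilage proteoglycan of Acan (2132 residues) in mouse 4, the protein of Gsdmc (468) in mouse 5 and that of Thsd7a (1646) in mouse 6. Mice 1 to 6 had 119, 32, 40, 13, 7 and 11 called genes, so these maxima are not compared between mice.

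Number of sites was also set against length. The 5 members held 27.7% of all residues of the 192 called proteins, titin alone 19.1%, and 6 of the 231 sites in them (2.60%). That is 0.117 sites per 1000 residues in the members and 1.69 in the other called genes. Each called gene has at least 1 site by construction, which raises this rate in short genes, so nothing is read from it. Sites per called gene were 1.19 in proteins under 500 residues (94 genes), 1.16 from 500 to under 1000 (51 genes), 1.29 from 1000 to under 2000 (31 genes) and 1.29 from 2000 to under 4000 (14 genes). The 2 proteins of 4000 or more, titin and piccolo, had 1 site each. Over 1 site was seen in 1 of the 5 members (Muc4) and in 32 of the 204 other genes (15.7%).

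Of all 21900 protein-coding genes of the RefSeq table, 192 could be matched to a called gene, which is 0.877% called. These are counted by name and do not depend on a protein length in the deposited table. The members were picked from the called genes, so their 5 of 5 is not read against that share. A list of 89 textbook genes for very long proteins, drawn up with earlier results of these data known, held the 5 members and 84 other genes. Of these 84, only Cdh23 had a call (1.19%), a change E541K at 15.9% in tumour 2 of mouse 1, against 0 in the control. The other 83, among them the relatives Csmd2, Csmd3 and Bsn, had no call in the lines analysed. They are not shown to be unmutated, since read depth is unknown and 12 lines are not analysed here. With the members counted, 6 of the 89 listed genes had a call (6.74%). The members are the 5 longest called genes with a protein length. Taking them out of the list thus leaves no called gene with a deposited length as long as that of Muc4. Both shares are set by that choice, and neither is read against the 0.877% of all genes.

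Protein lengths of all genes were not used here, and gene span, introns included, was taken in their place. Spans of the members were 1643 kb for Csmd1 on chromosome 8 (15892538 to 17535385), 348.6 kb for Pclo, 278.6 kb for Ttn, 152.5 kb for Akap9 and 46.5 kb for Muc4. Of 5251 genes with a span of at least that of Muc4, 1.41% had a call, against 0.709% of the 16649 shorter genes, the members counted among the first. By span the share was 0.794% under 10 kb, 0.558% from 10 to 30 kb, 1.00% from 30 to 100 kb, 1.50% from 100 to 300 kb and 2.51% at 300 kb or more (14 of 557 genes, exact 95% interval 1.38 to 4.18). The members, picked as called genes, are counted in these bins: 1 from 30 to 100 kb, 2 from 100 to 300 kb and 2 at 300 kb or more. Part of the rise with span is thus set by that choice. Span and coding length differ widely: exons coding for the protein amount to 37.9% of the span of Ttn and 0.651% of that of Csmd1. Without mouse 1 both shares were lower, at 0.609% of the 5251 genes of long span and 0.330% of the 16649 shorter ones. The ratio of the shares was 1.99 with all mice and 1.84 without mouse 1.

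**Figure D5:**
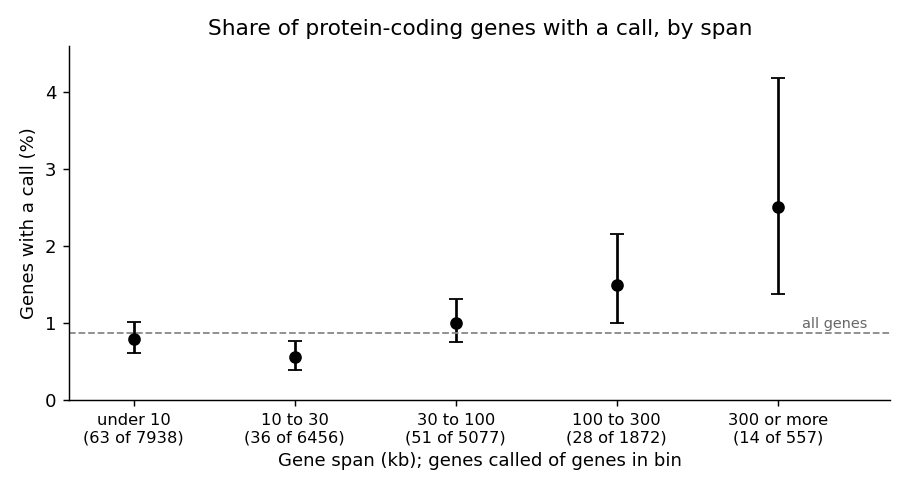
Share of protein-coding RefSeq genes with a call in percent (y) by gene span in kb (x), with exact 95% intervals for counting error and the number of called genes of all genes in each bin. The share is 0.558% from 10 to 30 kb and 2.51% at 300 kb or more, and the dashed line is the 0.877% of all genes.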

How the data were processed

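Exome libraries of 11 tumours and 6 controls were captured with an Agilent SureSelect kit, which the labels' protocols call a human kit. The submitters' processing notes name the tools GATK and BWA and a human build, GRCh38, without roles or versions. Per the file headers, calls came from Strelka with mouse Ensembl annotation. No source used here gives the filters or the read depth. Allele fractions of tumour and control were deposited by the authors as a fraction from 0 to 1 and are printed here as percentages. The deposited quality score and tier are given as they stand. The copy used had 402 lines, of which 12 were blank. The table holds 0 synonymous calls.

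From these, sites, shares and medians were computed in Python 3.11.15 (pandas 2.3.3, SciPy 1.17.1). Each fraction was divided by the median of all calls of its tumour. Intervals are exact (Clopper-Pearson, 95%). Gene names were matched to RefSeq GRCm38 by symbol or by a synonym of 1 gene, which succeeded for 202 of 209. Exon ranks that the sheet had turned into dates were read back as month and day, or month and year. Ratios and gene matching were tested on simulated data. No hypothesis test was made. The members and lists were chosen with earlier results of these data known. All 5 members were named with every call, as was each called gene of the long-protein list. Genes just under the members in length and the longest in each mouse were named after their values were seen. Shares by protein length over all genes had been planned and were replaced by gene span.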

Additional observations from a re-analysis of the deposited data

Results flagged for a closer look

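The longest called protein of mouse 1, titin with 35213 residues, lay far from those of the other 5 mice, of which the next was the Akap9 protein of mouse 2 with 3779. Mouse 1 also had the most called genes, 119 against 7 to 40 in the others, and a maximum over more genes can be larger. The members were chosen for length, so no chance rate is given for this gap.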

How the results depend on the processing

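Unknown depth limits every fraction, and 8 calls limit every share. At a tumour fraction of at least 0.1 the member sites fell to 2 (Ttn in tumour 2 of mouse 1, and Akap9), or 0.0391 per 1000 residues, their median ratio to the tumour median was 0.979, and 0.952% of the genes of long span and 0.456% of the shorter genes had a call. The cut falls on the same fraction that forms the ratio. Counts and shares can therefore only fall under it, and nothing is read from the higher ratio. Leaving out 1 mouse or 1 tumour of a mouse with several at a time left 3 to 6 member sites (3 without mouse 1), or 0.0587 to 0.117 per 1000 residues. It left 0.609 to 1.41% of the genes of long span and 0.330 to 0.709% of the shorter genes with a call, both lowest without mouse 1, and the ratio of the shares was 1.84 to 2.14. Under the same omissions the median ratio to the tumour median was 0.512 to 0.787, the share of member calls with a control at 0 was 57.1 to 75%, and the median length of the other called proteins was 480 to 509.5 residues.

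Pairing by mouse number, with the control fraction of the same mouse subtracted as a replicate block, gave a median ratio of 0.643 in place of 0.650. It was 0.789 without Muc4 and 0.327 without mice 1 and 2, both chosen after seeing the data. Protein-altering calls only, calls without an identifier, tier 1, other centres of the tumour and each site once moved no ratio, control share or length by more than its spread. These spreads are wide: an SD of 0.334 between mouse medians for the ratio, and 24.5 to 91.5% for the control share. Even the ratio of 0.979 at a fraction of at least 0.1 lay within its spread, so little is read from this. Protein lengths from RefSeq and shares by protein length over all genes were not run, since neither was used here. No other called gene with a protein length was as long as Muc4, which leaving out calls cannot change.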

Other observations

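The 9 next longest genes were ranked among the called genes with a protein length. Of these 9, Ptprz1, which encodes a receptor protein tyrosine phosphatase of the nervous system (2312 residues), had 4 sites. That was more than any of the 5 longest. The changes were V1375I, R1440K, M1507T and S1848R, all in mouse 1, in 6 calls at fractions of 10 to 37.9%, against 0 in the control. The other 8 genes had 1 site each. They include Col12a1, which encodes a fibril-associated collagen (I507T, 14.1 and 18.3% in both tumours of mouse 1), and Wdfy4 (T2545N, 12.7% in mouse 3). Acan carried H1938P at 37.5% in mouse 4. The control was at 0 in all 17 calls of these 9 genes.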
